A study of Mus musculus with 16 samples.

Results

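The 7 genes described here encode the simple-epithelial keratins that the small intestine makes (*Krt7*, *Krt8*, *Krt18*, *Krt19*, *Krt20* and *Krt23*) and vimentin (*Vim*), the intermediate filament protein of mesenchymal, endothelial and immune cells. They were taken by symbol from the 45513 genes counted in each library, and all 7 passed the filter on low counts that left 15323 genes for testing. Libraries came from the small intestine of 8 mice, with 1 library of tdTom+ and 1 of tdTom- cells from each mouse, 16 in all. Every mouse was *Atoh1*(WT)CreERT2 R26RtdTom: homozygous for a knock-in that places the tamoxifen-inducible recombinase CreERT2 behind the coding sequence of *Atoh1*, the transcription factor gene that starts the secretory lineage, and heterozygous for a tdTomato (tdTom) reporter at *Rosa26*. Both fractions therefore carried the same alleles and had seen the same tamoxifen. The labels and the methods for the secretory signature give it as 1 mg per day on 3 days in a row. The methods under RNA sequencing instead name an injection of 3 mg on the day before collection, and which of these applied is not settled here. The animals were males and females aged 8 to 16 weeks on a C57BL/6 background. Crypt-rich fractions of the intestine were dissociated, and live cells carrying EpCAM, a surface protein of epithelial cells, were sorted into those with the reporter (tdTom+) and those without it (tdTom-). The reporter marks cells in which *Atoh1* was active at the time of tamoxifen, together with their progeny, so tdTom- cells are a mixture of absorptive, stem and unlabelled cells rather than a single cell type.

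Keratin filaments are obligate heteropolymers: a type II keratin (*Krt7* or *Krt8* here) pairs with a type I keratin (*Krt18*, *Krt19*, *Krt20* or *Krt23* here), and a keratin without a partner is degraded. In intestinal epithelium *Krt8* is the main type II chain. *Krt18*, *Krt19* and *Krt20* are its usual partners, and *Krt20* is best known from the differentiated cells of the villus. Vimentin is of another class (type III), forms filaments with itself, and is widely used to tell mesenchymal from epithelial cells.

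The libraries held 17116405 to 25323567 assigned counts, and libraries of the same mouse deviated together. The marker lists followed the labels of the sort: all 8 goblet and all 8 Paneth cell markers were higher in tdTom+, and all 8 absorptive markers were lower. Enteroendocrine markers (8 of 8) and tuft cell markers (6 of 6 tested) were also higher in tdTom+. In the paper's staining a day after tamoxifen, neither tuft nor mature enteroendocrine cells carried the reporter, while enteroendocrine cells did some days later. Of 8 stem and proliferation markers 3 were higher and 5 did not pass, and of 8 general epithelial markers 3 were higher, 3 lower and 2 not past the threshold. Among all genes tested 25.8% were higher and 30% lower. The tdTom- libraries of mice 7 and 8 stood apart from the other 6. The summed level of 12 immune markers was 143 and 152 CPM (counts scaled to a common library size) in them against 12.9 to 42.0 in the others, and that of 8 absorptive markers was 14550 and 24823 CPM against 27682 to 38346. Stem and proliferation markers summed to 3106 and 1955 CPM against 1286 to 1810, and tuft cell markers to 17.5 and 31.3 CPM against 59.7 to 102. Their goblet and Paneth sums lay within the range of the other 6. For the results below that these mice moved most, values without them are given as well. In these bulk samples, fewer cells of a type and less RNA per cell cannot be told apart.

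The type I genes lie in the keratin cluster of chromosome 11 and the type II genes in that of chromosome 15, except for *Krt18*, the type I gene that sits beside *Krt8*. By the bounds in the count files (GRCm38), *Krt20* (ENSMUSG00000035775) runs from 99428403 to 99438150, *Krt23* (ENSMUSG00000006777) from 99477974 to 99493137 and *Krt19* (ENSMUSG00000020911) from 100140810 to 100148665, all on the minus strand of chromosome 11. *Krt7* (ENSMUSG00000023039) runs from 101411043 to 101430313 on the plus strand of chromosome 15. *Krt8* (ENSMUSG00000049382) runs from 101996711 to 102004342 on the minus strand and *Krt18* (ENSMUSG00000023043) from 102028216 to 102032026 on the plus strand of the same chromosome. *Krt8* and *Krt18* thus point away from each other, with 23874 bases between their starts and no other counted gene between them. *Vim* (ENSMUSG00000026728) runs from 13573927 to 13582826 on the plus strand of chromosome 2. All 7 are protein-coding, and no other counted gene overlaps any of them.

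The sequences just before the starts of *Krt8*, *Krt18* and *Krt20* are shown because these are the main type II chain and the 2 type I partners whose shares of the keratin mRNA differed most between the fractions. Each run is the 250 bases before the start in RefSeq (GRCm38.p6), read 5′ to 3′ on the strand of the gene: chr15:102004343-102004592 (minus) for *Krt8*, chr15:102027966-102028215 (plus) for *Krt18* and chr11:99438154-99438403 (minus) for *Krt20*. Capitals mark the TATA box letters TATAAA.
Krt8: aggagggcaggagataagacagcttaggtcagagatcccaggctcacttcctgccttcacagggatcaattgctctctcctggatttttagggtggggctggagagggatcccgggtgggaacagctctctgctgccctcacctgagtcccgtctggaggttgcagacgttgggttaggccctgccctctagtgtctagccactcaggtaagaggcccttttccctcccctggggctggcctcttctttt
Krt18: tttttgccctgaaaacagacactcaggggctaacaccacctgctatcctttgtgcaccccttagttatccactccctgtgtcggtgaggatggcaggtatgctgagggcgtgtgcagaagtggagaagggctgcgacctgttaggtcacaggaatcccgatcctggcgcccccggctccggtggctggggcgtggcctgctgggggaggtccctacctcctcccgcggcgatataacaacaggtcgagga
Krt20: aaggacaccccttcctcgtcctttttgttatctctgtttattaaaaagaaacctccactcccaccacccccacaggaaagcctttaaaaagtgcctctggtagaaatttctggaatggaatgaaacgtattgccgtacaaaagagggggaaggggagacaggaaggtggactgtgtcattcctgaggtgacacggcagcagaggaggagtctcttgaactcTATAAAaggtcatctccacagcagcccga
RefSeq promoters were matched for 6 of the 7 genes, all but *Krt19*, and 4 motifs were searched on both strands of the 250 bases. TATAAA was found in *Krt20* (first base at -29 from the start) and *Vim* (-32), against 12.4% of 32851 promoters. The E-box CAGCTG, one of the letter strings that basic helix-loop-helix factors such as ATOH1 can bind, was found in 0 of the 6 (13% of all promoters). The E-box CATCTG was found in *Krt23* alone, at -250 (14.4% of all promoters). The GC box GGGCGG was found in *Krt7* alone, at 4 positions (32.7% of all promoters). No motif overlapped another by its letters. These are matches of letters within a short window and say nothing of binding.

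Whether the filament genes differ between the secretory and the remaining epithelium was tested by the paired comparison of tdTom+ with tdTom- (edgeR quasi-likelihood test with the mouse as a block, Benjamini-Hochberg adjusted over all genes tested, threshold 0.01). Of the 7 genes, 5 were higher in tdTom+, 0 were lower and 2 did not pass the test. At an unadjusted p under 0.05, 1 was lower (*Krt20*) in edgeR, DESeq2 and limma-voom alike, and 0 were lower after adjustment in DESeq2 and limma-voom. The background is high: 55.8% of all genes tested passed, 25.8% as higher and 30% as lower, so the count alone does not set these genes apart. For how many of all genes the fractions do not overlap is not given here. A lack of overlap in a gene below therefore does not set it apart either. The median log2 fold change of the 7 was 2.14, against 0.02 over all genes tested. *Krt7*, *Krt18*, *Krt23* and *Vim* were higher by 4.39-fold to 11.9-fold, and *Krt8* by 1.44-fold. The 2 genes that did not pass, *Krt19* and *Krt20*, are both high in either fraction.

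**Figure D1:**
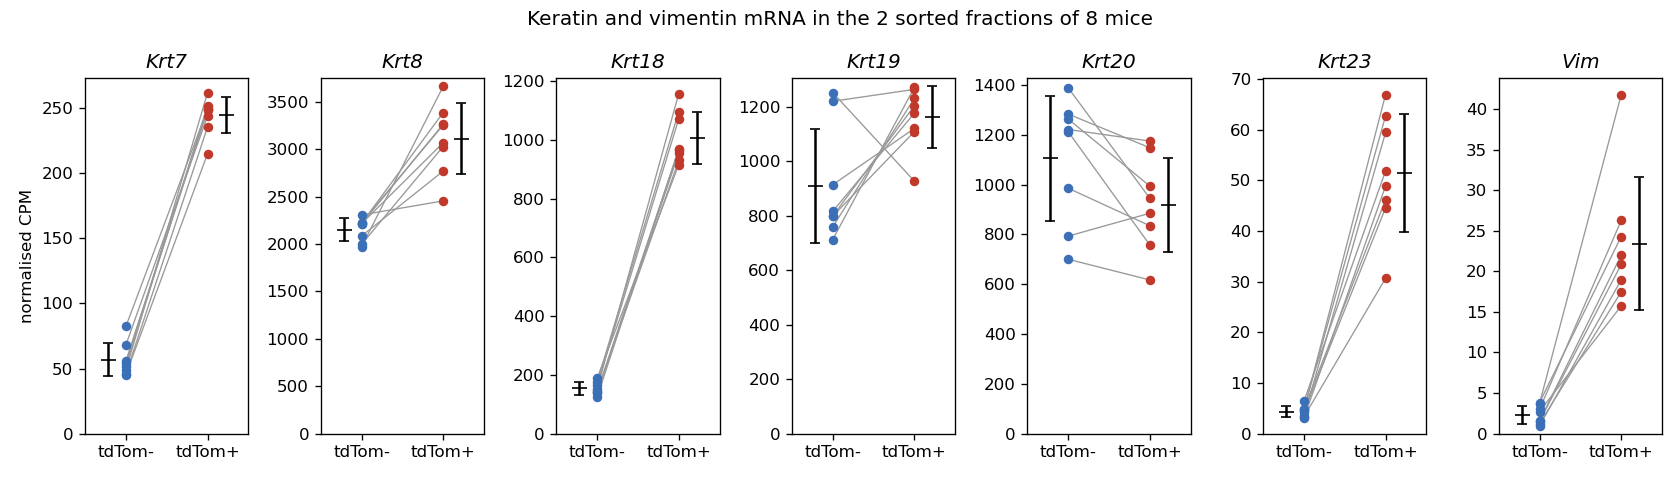
Normalised level (CPM, y axis from 0 and different in each panel) of the 7 genes in tdTom- (blue) and tdTom+ (red) libraries; grey lines join the libraries of a mouse, and black marks give the mean and SD of 8 libraries. The fractions do not overlap for *Krt7*, *Krt8*, *Krt18*, *Krt23* and *Vim*, and they overlap for *Krt19* and *Krt20*. The share of all genes tested without overlap is not given here.

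*Krt8*, the main type II chain, was the most abundant of the 7 in every library. Its level in tdTom- was lowest at 1970, had a median of 2212 and was highest at 2307 CPM (TMM-normalised), and in tdTom+ the same figures were 2455, 3162 and 3663 CPM. The fractions did not overlap, although the gap was small. The means were 2153 ± 121 and 3112 ± 374 CPM (SD, n = 8 each). The fitted log2 difference was 0.52 ± 0.08 (SE, edgeR adjusted p = 9.9e-05). It was higher in tdTom+ in 8 of 8 mice, by 0.09 to 0.89 on the log2 scale, and mouse 7 gave the smallest difference.

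*Krt7*, the other type II chain, is typical of ducts and is a minor keratin of the gut. It had a low of 45.4, a median of 53.4 and a high of 82.4 CPM in tdTom-, and 215, 249 and 262 CPM in tdTom+. All tdTom+ libraries were above all tdTom- libraries, and the highest tdTom- values were those of mice 7 and 8. The log2 fold change was 2.14 ± 0.09 (SE, edgeR adjusted p = 1.1e-10), or 4.39-fold, with the mice between 1.60 and 2.42. The level varied by 22.4% of its mean among tdTom- and by 5.72% among tdTom+ libraries (coefficient of variation), and the value for tdTom- was 14.8% without mouse 8 and 8.75% without mice 7 and 8.

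Among type I chains, *Krt18*, the classic partner of *Krt8*, differed most in absolute amount. Its tdTom- libraries had a low of 124, a median of 148 and a high of 188 CPM, and its tdTom+ libraries 916, 968 and 1158 CPM. The lowest tdTom+ library was thus several times the highest tdTom- library. Means were 154 ± 21.2 and 1008 ± 88.6 CPM (SD, n = 8 each), and the log2 fold change was 2.72 ± 0.08 (SE, edgeR adjusted p = 4.1e-12), or 6.59-fold. The mice ranged from 2.28 to 2.97.

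*Krt19*, which encodes the smallest keratin, did not pass the test. Its levels were 713, 808 and 1253 CPM (lowest, median, highest) in tdTom- and 928, 1191 and 1272 CPM in tdTom+, and the fractions overlapped. The log2 fold change was 0.38 ± 0.12 (SE, edgeR adjusted p = 0.013). The difference was positive in 7 mice and -0.43 in mouse 7, which held both the highest tdTom- value (1253 CPM) and the lowest tdTom+ value (928 CPM). Mouse 8 had the next highest tdTom- value, 1221 CPM. Without mouse 7 the log2 fold change was 0.50 (edgeR adjusted p = 0.0002). Without mice 7 and 8, left out together after their values were seen, it was 0.57 (edgeR adjusted p = 2.4e-05).

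*Krt20* was the only one of the 7 with a lower mean in tdTom+, and it did not pass the test either. Levels were 700, 1217 and 1388 CPM (lowest, median, highest) in tdTom- and 617, 915 and 1175 CPM in tdTom+. The lowest tdTom- libraries were those of mice 7 (700 CPM) and 8 (793 CPM), the mice with the lowest absorptive markers in that fraction, and their part in this result was not tested. The log2 fold change was -0.26 ± 0.09 (SE, edgeR adjusted p = 0.021). The difference was negative in 7 mice and 0.16 in mouse 8. Without mouse 8 it was -0.32 (edgeR adjusted p = 0.006), and without mice 7 and 8 it was -0.34 (edgeR adjusted p = 0.0042).

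*Krt23* was the type I chain with the largest fold and the lowest level. It had a low of 3.04, a median of 4.42 and a high of 6.35 CPM in tdTom-, and 30.7, 50.4 and 67.0 CPM in tdTom+, with no overlap. The log2 fold change was 3.58 ± 0.12 (SE, edgeR adjusted p = 1.7e-11), or 11.9-fold. It was higher in 8 of 8 mice, by 3.01 to 4.10. The lowest value in each fraction came from mouse 8 (tdTom-) and mouse 7 (tdTom+).

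*Vim* was the rarest of the 7. Its tdTom- libraries held 18 to 90 counts, or 0.939, 2.13 and 3.80 CPM (lowest, median, highest), and its tdTom+ libraries 257 to 833 counts, or 15.7, 21.4 and 41.7 CPM. The fractions did not overlap. Mouse 7 had the highest tdTom+ value (41.7 CPM, the next being 26.3), and mice 8 and 7 had the highest tdTom- values (3.80 and 3.69 CPM). The log2 fold change was 3.38 ± 0.17 (SE, edgeR adjusted p = 6.4e-10), or 10.4-fold, with the mice between 2.49 and 4.20. Without mice 7 and 8 it was 3.51 (edgeR adjusted p = 1.8e-09).

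**Figure D2:**
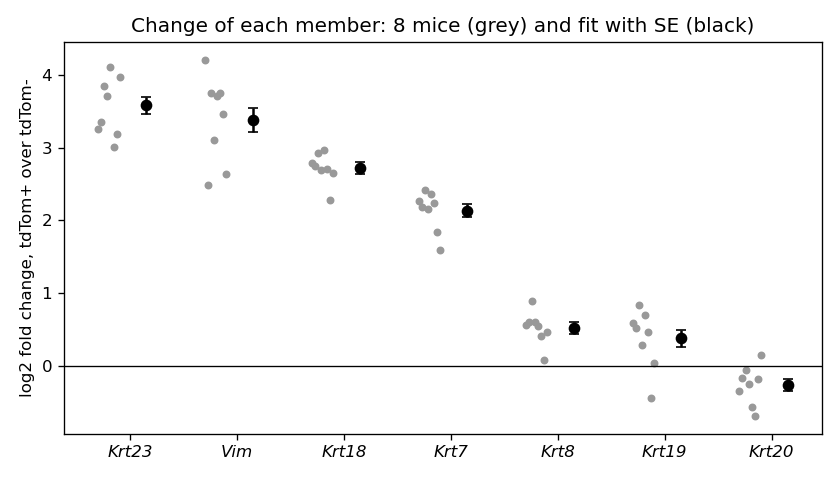
Log2 fold change of tdTom+ over tdTom- (y axis) for each gene, with the 8 mice in grey and the fitted value with its SE in black. *Krt23*, *Vim*, *Krt18* and *Krt7* lie above 1 in every mouse, *Krt8* is above 0 in 8 of 8 mice, and *Krt19* and *Krt20* have mice on both sides of 0.

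Since vimentin marks several cell types that an epithelial sort should remove, their markers were read beside it. The summed level of 10 stromal markers was 3.20 to 5.52 CPM in tdTom- and 3.51 to 5.29 CPM in tdTom+, with *Lum* at 0 in every library. Of the 3 stromal markers tested, *Pdgfrb* was higher in tdTom+ (log2 fold change 1.14 ± 0.23 SE, edgeR adjusted p = 0.00072, 0.743 against 1.62 CPM) and the other 2 did not pass. *Pdgfrb* reached the count minimum of the filter in 6 of 8 tdTom- and 8 of 8 tdTom+ libraries, so its fold rests on few counts. The 8 endothelial markers summed to 1.5 to 4.01 CPM in tdTom- and 2.73 to 4.65 CPM in tdTom+, with *Emcn* at 0 in every library, and 0 of the 4 tested passed in edgeR, with 2 at an unadjusted p under 0.05 (0 passed in DESeq2 and limma-voom). Immune markers went the other way, with 7 of 10 tested lower in tdTom+ (3 without mouse 8), and their sum there was 7.07 to 30.5 CPM. The 6 mesothelial and glial markers summed to at most 1.11 CPM, with *Wt1* and *Sox10* at 0 in every library. The 1 of them tested in edgeR did not pass at an unadjusted p under 0.05 either, and 0 of them passed in DESeq2 and limma-voom. For the stromal, endothelial and mesothelial or glial lists the ranges of the 2 fractions overlapped, while those of *Vim* did not. By mouse, the sum was higher in tdTom+ in 6 of 8 mice for stromal, 7 of 8 for endothelial and 3 of 8 for mesothelial and glial markers. The means were 3.98 and 4.57 CPM for stromal and 2.36 and 3.39 CPM for endothelial markers (tdTom-, tdTom+). Their part in the *Vim* result was not tested.

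Genes tied to the change from epithelial to mesenchymal form were then counted. Of 10 such genes, only 3 passed the filter on low counts: *Cdh1*, *Epcam* and *Fn1*. The factors *Snai1*, *Snai2*, *Zeb1*, *Zeb2*, *Twist1* and *Twist2* and the mesenchymal cadherin gene *Cdh2* were below it. *Cdh1*, which encodes E-cadherin of the adherens junction, was higher in tdTom+ (696 ± 62.1 against 962 ± 84.2 CPM, SD, n = 8 each), with a log2 fold change of 0.47 ± 0.07 (SE, edgeR adjusted p = 4.3e-05). *Fn1*, the fibronectin gene, was lower (1.43 against 0.734 CPM, log2 fold change -0.87 ± 0.24 SE, edgeR adjusted p = 0.0064), but it was higher in tdTom+ in 2 mice, and the call was lost without any of mice 2, 3, 4, 6 and 8 (log2 fold change -0.69 and edgeR adjusted p = 0.047 without mouse 3). *Epcam*, the gene of the sorted surface protein, had a log2 fold change of -0.11 (edgeR adjusted p = 0.11).

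Levels of different genes can be set side by side only per length, so counts were divided by the exon length in the files and scaled to a common sum of all genes in a library (TPM). In tdTom- the order was *Krt8* (2226 ± 346), *Krt20* (1094 ± 361), *Krt19* (899 ± 146), *Krt18* (203 ± 25), *Krt7* (14.7 ± 1.84), *Krt23* (5.27 ± 2.15) and *Vim* (0.865 ± 0.350 TPM, SD, n = 8). In tdTom+ it was *Krt8* (2258 ± 422), *Krt18* (938 ± 132), *Krt19* (822 ± 147), *Krt20* (627 ± 157), *Krt7* (45.1 ± 4.71), *Krt23* (43.4 ± 12.1) and *Vim* (6.24 ± 1.39 TPM, SD, n = 8). *Krt18* moved from the fourth place to the second with these lengths. In tdTom- the ranges of *Krt20* and *Krt19* overlapped, and *Krt19* was the lower in 6 of 8 libraries. In tdTom+ *Krt19* was below *Krt18* and *Krt20* below *Krt19* in 8 of 8 libraries each, although their ranges across libraries overlapped, and *Krt23* was below *Krt7* in 4 of 8. The order depends in part on the length used. With the longest protein-coding transcript in place of the exon length, an alternative added after the data were seen, *Krt19* (968 TPM) stood above *Krt18* (914 TPM) in tdTom+. *Krt7* rose from 45.1 to 77.7 TPM (60.1 to 87.4) and then lay above *Krt23* (19.7 to 57.6 TPM) without overlap. *Vim* rose from 6.24 to 13.5 TPM and kept the last place. Goblet markers summed to 128104 to 264225 CPM in tdTom+ against 952 to 1511 CPM in tdTom-, and so large a share lowers the TPM of all other genes there, so the fractions are compared by the fit above and not by TPM.

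The makeup of the type I mRNA pool does not depend on that scaling, but it does depend on the lengths used. *Krt18* was 9.35 ± 1.39% of the 4 type I keratins in tdTom- and 38.9 ± 2.84% in tdTom+ (share of TPM, SD, n = 8 each), with no overlap. *Krt20* went from 48.7 ± 10.7% to 25.5 ± 3.09%, also with no overlap, though its lowest tdTom- share (30.9%, mouse 7) was close to its highest tdTom+ share (30.6%). *Krt19* was 41.7 ± 9.54% and 33.8 ± 1.40%, with overlap. Without mice 7 and 8 the tdTom- shares were 54.1 ± 4.59% for *Krt20* and 36.8 ± 3.68% for *Krt19* (SD, n = 6). *Krt23* was 0.234 ± 0.0617% and 1.76 ± 0.311%. In 6 tdTom- libraries *Krt20* was the largest type I share, while in those of mice 7 and 8 it was *Krt19*, and in all 8 tdTom+ libraries it was *Krt18*. With transcript lengths *Krt19* was the largest share in 6 of the 8 tdTom+ libraries and in 3 tdTom- libraries, and *Krt18* took 8.49 ± 1.16% in tdTom- and 36.1 ± 2.66% in tdTom+ (SD, n = 8 each). Shares of 1 pool are not independent, since a rise of *Krt18* lowers the others by construction.

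**Figure D3:**
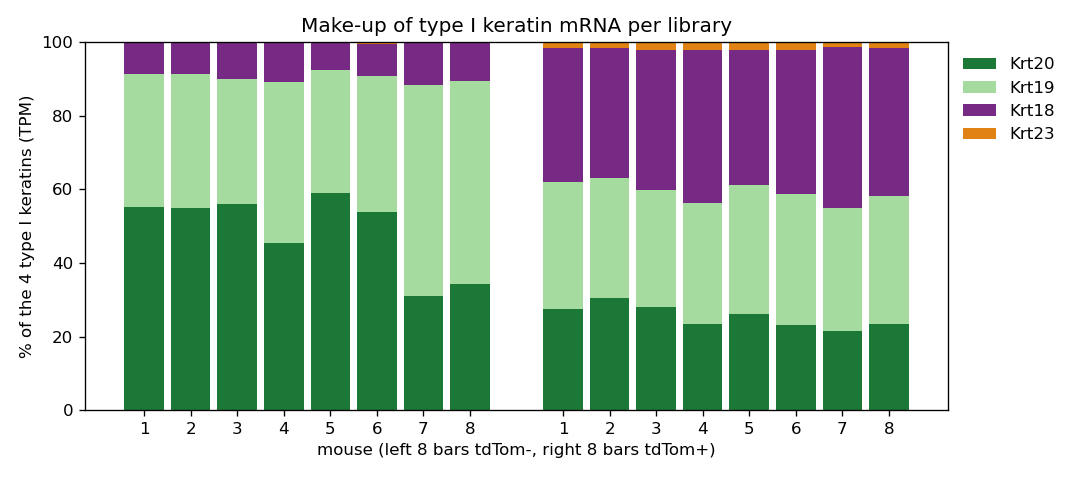
Share of each type I keratin in the summed TPM of the 4 (y axis, %) with exon lengths, 1 bar per library, with tdTom- at the left and tdTom+ at the right and the mouse number below. *Krt18* (purple) takes 7.24 to 11.4% of each tdTom- bar and 35.4 to 43.8% of each tdTom+ bar.

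Within type II, *Krt8* was nearly all of the pool, and *Krt7* was 0.667 ± 0.134% in tdTom- and 1.99 ± 0.221% in tdTom+ (share of TPM, SD, n = 8 each). With transcript lengths, which are much shorter for *Krt7*, those shares were 1.24 ± 0.248% and 3.66 ± 0.398%. The ratio of *Krt8* to *Krt18* was 11.0 ± 1.65 in tdTom- and 2.40 ± 0.244 in tdTom+, with no overlap between 9.35 to 13.9 and 2.08 to 2.72. Yet the summed type II level stayed close to the summed type I level in both fractions. The ratio of type II to type I was 1.02 ± 0.0379 in tdTom- (0.972 to 1.10) and 0.946 ± 0.0331 in tdTom+ (0.887 to 0.983). It was lower in tdTom+ in 8 of 8 mice, though the ranges overlapped. That ratio rests on the lengths used: with the longest protein-coding transcript it was 0.883 and 0.845, and without division by length 1.02 and 1.07. Its direction thus turned without division by length, where it was higher in tdTom+ in 6 of 8 mice. It compares mRNA and not protein. Together the 6 keratins took 0.448 ± 0.0272% of all counts in tdTom- and 0.635 ± 0.0701% in tdTom+, higher in 8 of 8 mice.

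**Figure D4:**
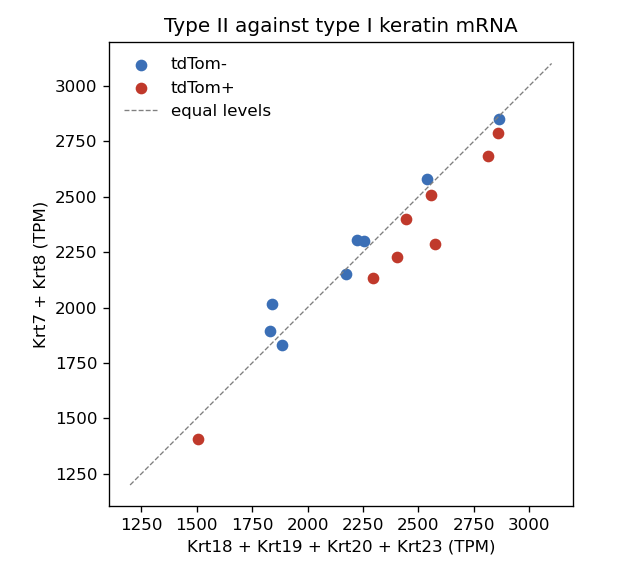
Summed TPM of the type II keratins *Krt7* and *Krt8* (y axis) against that of the type I keratins (x axis), 1 point per library; the dashed line marks equal levels. Points of both fractions lie along the line, with the 8 tdTom+ points (red) below it and ratios from 0.887 to 0.983.

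How the partners of *Krt8* followed it from mouse to mouse was read as 6 correlations of log2 CPM, 3 in each fraction (n = 8 mice, exact two-sided permutation tests, Benjamini-Hochberg over the 6, threshold 0.05). In tdTom+ *Krt20* rose with *Krt8* with Pearson r = 0.981 (exact permutation p = 2.5e-05, adjusted 0.00015) and Spearman rho = 1 (exact permutation p = 4.96e-05, the smallest these orders can give, adjusted 0.0003). Without mice 3 and 7, the farthest from the median of *Krt8*, r was 0.951. The goblet marker sums of the tdTom+ libraries ran in nearly the same order as both genes. Mice 3, 2 and 1 were the highest in each (goblet sums of 264225, 258471 and 220736 CPM), and mice 6 and 7 the lowest (132868 and 128104 CPM). Mice 8, 4 and 5 lay between, in another order than for the genes (213104, 174298 and 158466 CPM). Mouse 7 also had the highest Paneth marker sum (139451 CPM). The part of these markers in the relation was not tested. In tdTom+ *Krt19* had r = 0.876 (exact permutation p = 0.0057, adjusted 0.017) and rho = 0.762 (exact permutation p = 0.037, adjusted 0.11), but r was 0.550 without mice 3 and 7. Leaving out the mice farthest from the median narrows the range of *Krt8*, so this fall alone does not show that the relation rests on them. The relation missed the threshold when mouse 3, 6 or 7 was left out singly (adjusted exact permutation p = 0.077 for mouse 6). *Krt18*, the gene next to *Krt8*, had r = 0.583 in tdTom+ (exact permutation p = 0.13, adjusted 0.26; rho = 0.571, exact permutation p = 0.15, adjusted 0.30) and r = -0.05 without the same mice.

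In tdTom- none of the 3 relations passed. For *Krt18* r was 0.05 (exact permutation p = 0.90, adjusted 0.90) and rho 0.05 (exact permutation p = 0.93, adjusted 0.98), with r = 0.438 without mice 3 and 4. For *Krt19* r was 0.499 (exact permutation p = 0.19, adjusted 0.29) and rho 0.429 (exact permutation p = 0.30, adjusted 0.45), with r = 0.534 without those mice. For *Krt20* r was -0.29 (exact permutation p = 0.50, adjusted 0.59) and rho 0.02 (exact permutation p = 0.98, adjusted 0.98), with r = -0.50 without them. Whether the relation of *Krt20* with *Krt8* differs between the fractions was not tested.

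**Figure D5:**
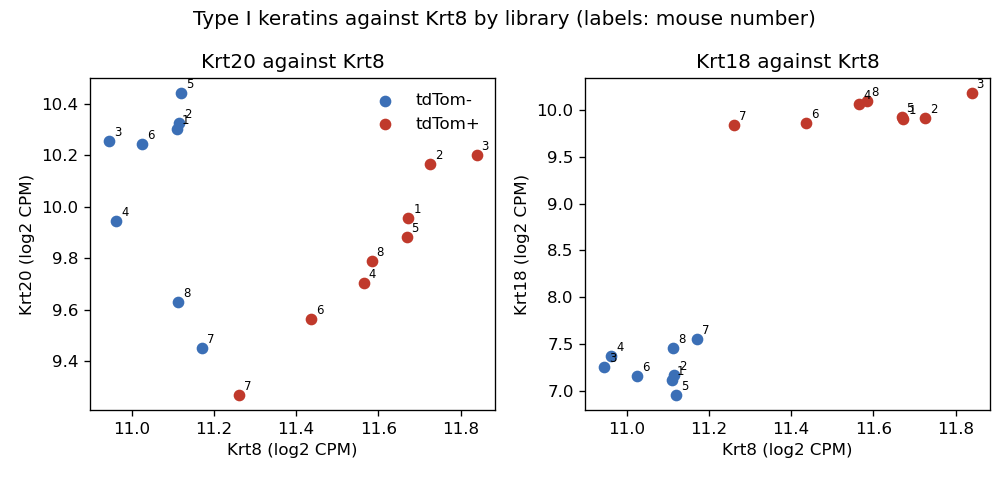
Log2 CPM of *Krt20* (left, y axis) and *Krt18* (right, y axis) against that of *Krt8* (x axis), 1 point per library with its mouse number; tdTom- in blue, tdTom+ in red. In tdTom+ *Krt20* rises with *Krt8* through all 8 mice (r = 0.981), while *Krt18* has r = 0.583 in tdTom+ and 0.05 in tdTom-.

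The genes whose levels followed each member most closely were sought among 8941 genes with a mean of at least 10 CPM, over 16 libraries after the mean of each fraction was removed (Pearson r, a description with no test, since libraries share mice and scaling). *Krt20* had the closest followers, *Zzef1* (0.967), *Dock5* (0.965) and *Lmo7* (0.962). For *Krt19* they were *Lgals2* (0.933), *Mrps30* (0.931) and *Cdx1* (0.896), the last a homeobox gene of intestinal identity. For *Vim* all 3 were immediate early genes, *Ier2* (0.918), *Egr1* (0.913) and *Nr4a1* (0.911), whose transcripts rise within minutes of a stimulus. *Krt18* was followed by *Inava* (0.882), *Pqlc1* (0.881) and *Ccnd2* (0.852), and *Krt7* by *Rrp7a* (0.862), *Pqlc1* (0.861) and *Foxa3* (0.850). For *Krt8* the values were lower in tdTom- than in tdTom+: *Ppp2ca* (0.860 in all, 0.631 and 0.927), *Sh3bgrl3* (0.857, 0.318 and 0.944) and *Mllt3* (0.851, 0.577 and 0.917). *Krt23* had *Zfp942* (0.858), *Zfp943* (0.805) and *Zfyve16* (0.789). Other followers were closer in tdTom- than in tdTom+, such as *Rrp7a* for *Krt7* (0.924 and 0.354), *Mrps30* for *Krt19* (0.993 and 0.623) and all 3 of *Krt18* (0.942 to 0.968 and 0.564 to 0.679). Without mice 7 and 8 the values were 0.889 to 0.921 for *Krt20*, 0.796 to 0.855 for *Vim*, 0.708 to 0.882 for *Krt19*, 0.696 to 0.882 for *Krt18*, 0.771 to 0.809 for *Krt8*, 0.499 to 0.901 for *Krt7* and 0.553 to 0.643 for *Krt23*. Among the 7 themselves, *Krt7*, *Krt18* and *Krt19* went together (0.746 to 0.831 for the 3 pairs), and *Krt20* and *Vim* went opposite ways (-0.741). Without mice 7 and 8 these were 0.464 to 0.637 and -0.32, and 7 of the other 17 pairs changed sign.

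Of the 48 other keratin genes counted, 20 were at 0 in every library and only 6 passed the filter, so the epithelium held little keratin mRNA beyond the 6 above (4.61 to 13.3 CPM summed in tdTom-, 7.57 to 12.2 in tdTom+). Of the 6, 2 were higher in tdTom+, 2 lower and 2 did not pass the test, which 55.8% of all genes tested passed. *Krt78*, a type II keratin, had 1 to 4 counts in each tdTom- and 44 to 111 in each tdTom+ library, and *Krt87* had 0 to 8 and 14 to 54 counts. Both reached the count minimum of the filter in 0 of 8 tdTom- and 8 of 8 tdTom+ libraries, so they passed it only through the fraction where they are high, and no fold is given. *Krt12*, a type I keratin best known from the cornea, fell in each of the 8 mice, with means of 5.68 ± 3.28 CPM in tdTom- and 0.744 ± 0.442 CPM in tdTom+ (SD, n = 8; -2.88 ± 0.21 SE, edgeR adjusted p = 3.4e-08). *Krt222* was lower in 7 of 8 mice (-0.65 ± 0.18 SE, edgeR adjusted p = 0.0062), and its call was lost without any of mice 1, 2, 4, 5, 6 and 8 (adjusted p up to 0.02), with DESeq2, TMM without the 10 most counted genes and thinning, and without the block (adjusted p = 0.13), at log2 fold changes of -0.68 to -0.55. *Krt12* and *Krt222* reached the count minimum in 8 of 8 tdTom- but only 6 of 8 tdTom+ libraries (4 to 26 and 6 to 34 counts there). Both thus passed the filter through the fraction where they are high, and their folds rest on few counts. The 2 higher and the 2 lower calls of this list all came from such genes, so these counts are no support for a difference.

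The other intermediate filament genes were few as well. Of 14 counted, 6 passed the filter, with 3 higher in tdTom+, 1 lower and 2 not past the threshold (55.8% of all genes tested passed it). The neurofilament genes *Nefm* (from 0.496 in tdTom- to 4.36 CPM in tdTom+ at the mean) and *Nefl* (0.388 to 2.20 CPM) were higher, at levels below that of *Vim*. They reached the count minimum in only 4 and 3 of the 8 tdTom- libraries but in 8 of 8 tdTom+ libraries. Both thus passed the filter only through the fraction where they are high, and no fold is given. The count of 3 higher rests in part on them. *Lmna*, of the nuclear lamina, was higher by 0.71 ± 0.08 (SE, edgeR adjusted p = 3.8e-06). *Bfsp1*, a filament protein of the eye lens, was lower (-1.03 ± 0.11 SE, edgeR adjusted p = 1.8e-06). *Lmnb1* (0.09) and *Lmnb2* (-0.04) did not pass, and *Des*, *Gfap*, *Prph* and *Nes* were below the filter.

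The genes that anchor keratin filaments were divided in direction. Of 14 desmosome, hemidesmosome and plakin genes, all tested, 3 were higher in tdTom+, 6 lower and 5 not past the threshold, with a median log2 fold change of -0.12 (0.02 over all genes tested). Over all genes tested 25.8% were higher and 30% lower, so the counts alone do not set these genes apart. Of 5 plakin genes, whose products are large linkers of filaments to junctions, 3 were lower: *Evpl* (envoplakin, -1.50 ± 0.09 SE, edgeR adjusted p = 4e-09), *Dst* (dystonin, -1.24 ± 0.17 SE, edgeR adjusted p = 1.6e-05) and *Plec* (plectin, -1.09 ± 0.14 SE, edgeR adjusted p = 9e-06), each in 8 of 8 mice. The other 2 plakin genes, *Dsp* (desmoplakin, 0.03, edgeR adjusted p = 0.72) and *Ppl* (periplakin, -0.18, edgeR adjusted p = 0.072), did not pass. *Plec* fell from 625 ± 199 to 282 ± 53.0 CPM (SD, n = 8 each). The plakophilins of the desmosome were split, with *Pkp1* (0.79) and *Pkp2* (0.18) higher and *Pkp3* (-0.52) and *Pkp4* (-0.46) lower. *Jup* (plakoglobin) was lower by -0.19 and *Itga6*, of the hemidesmosome, was higher by 0.29. The desmosomal cadherin genes *Dsg2* (0.11) and *Dsc2* (-0.06) did not pass. The calls of *Jup* and *Pkp2* were lost under other scalings (-0.08 for *Jup* with TMM without the 10 most counted genes, 0.12 for *Pkp2* with total counts) and without single mice (*Jup* -0.10 without mouse 3), with no change of sign.

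Among 14 genes that act on keratins or their transcription, 13 were tested, of which 2 were higher, 5 lower and 6 not past the threshold. Since 55.8% of all genes tested passed, 25.8% as higher and 30% as lower, these counts do not set the list apart. The Krüppel-like factor genes went apart: *Klf4*, a factor of goblet cell maturation, rose from 139 ± 41.6 to 356 ± 53.9 CPM (SD, n = 8 each; log2 fold change 1.40 ± 0.14 SE, edgeR adjusted p = 1.3e-06), and *Klf5*, a factor of crypt proliferation, fell from 159 ± 14.3 to 106 ± 10.4 CPM (-0.58 ± 0.05 SE, edgeR adjusted p = 1.1e-07). Of the 14-3-3 genes, whose proteins bind phosphorylated keratin 18, *Ywhaz* was higher (0.29) and *Sfn* lower (-0.63), while *Ywhah* (-0.06, edgeR adjusted p = 0.38) and *Ywhae* (0.03, edgeR adjusted p = 0.68) did not pass. *Fam83h*, which recruits casein kinase to keratin filaments, was lower by -0.37 (edgeR adjusted p = 2.1e-05). *Pnn* (-0.41) and *Hspa8* (-0.29) were also lower, the latter in 7 of 8 mice, and its call was lost without mouse 3 (-0.18, edgeR adjusted p = 0.05), with TMM without the 10 most counted genes (-0.19), with at least 10 counts in every library (-0.17) and without the block (-0.30).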

How the data were processed

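Per the labels and methods, RNA of sorted cells (RNeasy Micro Plus) was made into TruSeq Stranded mRNA libraries. Each deposited file gives unnormalised counts for Ensembl genes. The authors aligned reads with TopHat2 2.1.1 (submitters' notes) and counted primary alignments over exons on the reverse strand with featureCounts (1.5.0-p1 in the file headers, Subread 1.5.2 in the notes). GRCm38.p3 was their build, and symbols came from GENCODE M21 (44585 of 45513 genes).

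Here counts were scaled by TMM and tested in edgeR 4.0.16 (R 4.3.3; filterByExpr by group, quasi-likelihood test, mouse as block). The study names no block. Per the design text each mouse gave both fractions, and same-numbered libraries deviated together (mean r 0.426, lowest 0.245; 8 of 8 best with their own number). CPM are TMM-normalised, log2 CPM has a prior count of 2, and TPM used the exon lengths in the files. SE is the change over the square root of F. The tests were tried on simulated data in which few genes changed, up and down alike. These data differ from that, so the trial does not cover their scaling. Alternatives used DESeq2 1.42.0, limma 3.58.1 (voom), other scalings, filters, thresholds and left-out mice. Genes named were the 7 members, lists of filament, anchor, regulator and cell type genes, and the 3 closest followers of each member. Members and lists were chosen with earlier results of these data known. P values of the blocked fits rest on how the difference within a mouse varied across these 8 mice, with the variance estimate partly shared among genes. Those of the correlations rest on the pairing of values across the 8 mice of a fraction.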

Additional observations from a re-analysis of the deposited data

Results flagged for a closer look

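*Krt19* in tdTom+ was flagged because the library of mouse 7 lay far below the other 7: 928 CPM, the next value being 1110 CPM, a gap of 0.568 of the range of the 8 libraries on the log2 CPM scale, above Dixon's critical value. Of 14 sets of 8 libraries examined this way (7 genes in each fraction), 1 was flagged, and chance gives about 0.7. In that library the goblet markers had their lowest tdTom+ sum (128104 CPM), the Paneth markers their highest (139451 CPM) and the absorptive markers their lowest (1563 CPM). Their part in the *Krt19* value was not tested.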

How the results depend on the processing

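No alternative turned the sign of any of the 7 genes. Over 20 alternatives the log2 fold change was 2.07 to 2.28 for *Krt7*, 0.46 to 0.64 for *Krt8*, 2.66 to 2.84 for *Krt18*, 3.50 to 3.70 for *Krt23* and 3.28 to 3.51 for *Vim*, and these 5 passed in each, except *Krt8* (0.52) where a log2 change of 1 or more in either direction was required. *Krt19* passed with relative log expression factors (0.39), TMM without the 10 most counted genes (0.49), DESeq2 (0.39), no filter (0.37), at least 10 counts in every library (0.50), a threshold of 0.05 (0.38) and without mice 7 and 8 (0.57), and ranged from 0.34 to 0.50 with single mice left out (it passed without mouse 3, 0.42, and without mouse 7, 0.50). *Krt20* passed with total counts (-0.32), no filter (-0.27), a threshold of 0.05 (-0.26) and without mice 7 and 8 (-0.34). With single mice left out it ranged from -0.32 to -0.18 and passed only without mouse 8 (-0.32).

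Without the replicate block, *Krt19* was 0.36 (edgeR adjusted p = 0.019), *Krt20* -0.27 (edgeR adjusted p = 0.15) and *Krt8* 0.53, and 7606 genes passed (3473 higher, 4133 lower). That size limit of 1 left 3498 genes (1740 and 1758). The split of the 8556 calls, 3956 higher and 4600 lower, turned to 5013 and 3877 with TMM without the 10 most counted genes, to 4448 and 3356 with at least 10 counts in every library, and to 4529 and 3626 without mouse 3. The median of all genes moved from 0.02 to 0.12 in each of these. Leaving out single mice gave 7911 to 8923 calls.

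Counts in lists moved as follows. Of the epithelial to mesenchymal genes, 1 passed in place of 2 with TMM without the 10 most counted genes, DESeq2, no block, at least 10 counts or without mice 7 and 8 (1 to 2 with single mice left out), and 0 under the size limit. That limit left 3 anchor genes, 1 regulator, 1 epithelial and 0 stem or proliferation genes. Of stem and proliferation genes 5 passed without mice 7 and 8. Immune genes gave 11 with no filter, 3 with at least 10 counts and 3 to 8 with single mice left out. At least 10 counts in every library left 2 other filament genes, 0 stromal genes and 0 other keratins. Endothelial genes gave 2 at a threshold of 0.05 and 0 to 1 with single mice left out.

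The correlation of *Krt8* with *Krt20* in tdTom- turned positive with total counts (0.144) and relative log expression factors (0.137), and ranged from -0.44 to 0.10 over left-out mice. That with *Krt18* in tdTom- turned negative with relative log expression factors (-0.32) and ranged from -0.37 to 0.27. In tdTom+ the correlation with *Krt19* no longer passed the threshold of 0.05 with total counts (0.886, exact permutation adjusted p = 0.051) nor without mouse 3 (adjusted 0.061), 6 (0.077) or 7 (0.26), and ranged from 0.688 to 0.942 over left-out mice. That with *Krt20* in tdTom+ was 0.941 with total counts and 0.962 to 0.995 over left-out mice, and passed in each. The type II to type I ratio became 2.05 in tdTom- and 1.28 in tdTom+ for *Krt8* over *Krt18* and *Krt19* only, and 0.883 and 0.845 with transcript lengths. Without division by length it was 1.02 in tdTom- and 1.07 in tdTom+, which turned its direction. *Vim* rests on 18 to 90 counts in each tdTom- library.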
